A study of Mus musculus with 45 samples.

Results

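The comparison described here is that of neuroepithelial organoids treated with all-trans retinoic acid (RA) at day 2 and collected 66 h later, and untreated organoids of the same age. It was defined by the sample titles and takes 6 of the 45 RNAseq libraries of the series, 3 for RA and 3 for the untreated control, across all 54532 genes of the count table. Both groups were grown from R1, a wild-type mouse embryonic stem cell line, as clones embedded in Matrigel in N2B27, a serum-free medium in which such cells become neuroepithelium. At day 2 one group received N2B27 alone and the other N2B27 with RA, at a dose of 250 nM by the study's methods. Each library is a biological replicate by its title, but all come from a single cell line, so that the spread between them is that of cultures and not of animals or genotypes. The labels' protocol writes the dose in µM and has 68 h where the titles have 66 h; the titles' time is used here.

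RA is made from vitamin A by retinaldehyde dehydrogenases (Aldh1a enzymes), is broken down by Cyp26 enzymes, and acts in the nucleus through RAR and RXR receptors that sit on paired half-sites in DNA. In the embryo it patterns the neural tube from head to tail, chiefly by switching on 3′ Hox genes in the hindbrain and spinal cord, and it promotes the exit from pluripotency and the birth of neurons. Several of its direct targets, such as Rarb and Cyp26a1, form feedback loops on RA signalling itself.

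Total counts per library at 66 h lay between 32207417 and 33000377 in the untreated organoids and between 25589503 and 29206956 in the RA-treated organoids. In CPM, the count of a gene scaled to a fixed library total, 3 counts in a library correspond to 0.0909 to 0.117, a floor that covers counting error only, and genes below it are not resolved. Levels are given in CPM after TMM normalization, and the fold changes come from edgeR's quasi-likelihood test on the 6 libraries. A gene is said to have risen or fallen only where its Benjamini-Hochberg adjusted p was under 0.01 and its log2 fold change was above 1 or below -1. Of 16993 genes with enough counts to be tested, 1200 rose (7.06%) and 754 fell (4.44%), which makes 11.5% in either direction, and the median log2 fold change over all tested genes was -0.01. All RA libraries lay above all untreated libraries for 27.2% of the tested genes and below them for 28.8%. Counts for gene groups below are to be read against these shares, and values quoted for a gene as not called did not pass both criteria.

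**Figure D1:**
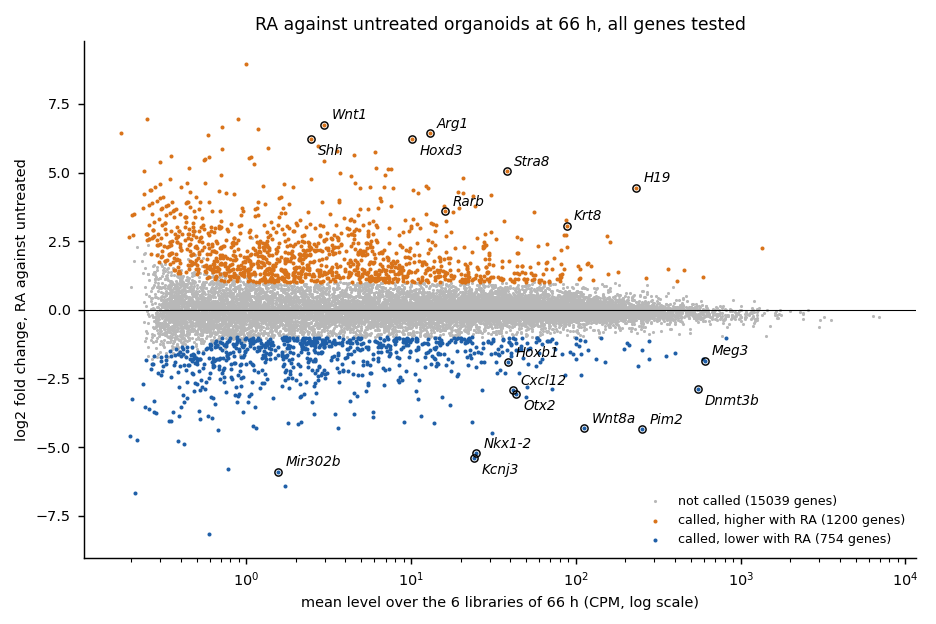
Each point is 1 of the 16993 genes tested at 66 h, placed by its mean level over the 6 libraries (CPM, log scale) and its log2 fold change, RA against untreated; orange genes rose, blue genes fell and grey genes were not called. Wnt1, Arg1, Shh and Hoxd3 lie near the top and Mir302b, Kcnj3 and Nkx1-2 near the bottom, while H19 and Krt8 at the top right and Dnmt3b, Pim2 and Meg3 at the bottom right combine a large change with a high level.

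The organoids of both groups carried the markers of neuroepithelium. In bulk RNA, fewer cells of a type and less RNA per cell cannot be told apart, here and for every marker that follows. Sox2, a transcription factor of neural progenitors that pluripotent cells also use, was at 215, 209 and 212 CPM in the untreated libraries and at 236, 220 and 234 CPM in the RA libraries (log2 fold change 0.13, not called). Sox1, a more strictly neural factor, was at 169 ± 22.4 CPM untreated and 127 ± 12.5 CPM with RA (SD, n = 3 each here and below). Nes, the intermediate filament nestin, was at 256 ± 23.4 and 361 ± 19.6 CPM, and Cdh2, N-cadherin, at 120 ± 15.5 and 194 ± 3.34 CPM. Of the 16 pan-neural progenitor genes tested, 3 rose and 0 fell, with a median log2 fold change of 0.49. The 3 were Pou3f3, a POU-domain factor (8.82 ± 0.634 to 102 ± 7.28 CPM, log2 fold change 3.55), Vim, vimentin (192 ± 23.8 to 530 ± 18.8 CPM, 1.48), and Pou3f2 (1.29).

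Transcripts of some genes for the supply, breakdown and reception of RA differed between the groups. Among 7 tested enzymes of synthesis and breakdown, 2 rose and 2 fell. Aldh1a1, which makes RA from retinaldehyde, was at 0.151, 0.124 and 0.251 CPM without RA and at 3.43, 5.33 and 5.57 CPM with it, so that the groups did not overlap (log2 fold change 4.75 ± 0.31 SE, edgeR adjusted p = 1.4e-06). Aldh1a2, the main RA-producing enzyme of the early embryo, stood at 0.513, 0.432 and 0.596 CPM untreated and at 2.46, 3.79 and 2.89 CPM with RA (2.58 ± 0.24). The enzymes that break RA down went the other way or did not change detectably. Cyp26b1 was at 43.2, 42.5 and 57.1 CPM in the untreated libraries and at 6.85, 3.5 and 8.68 CPM with RA (-2.91 ± 0.23, edgeR adjusted p = 5.5e-06), and Cyp26c1 fell from 1.61 ± 0.462 to 0.176 ± 0.0608 CPM (-3.16 ± 0.37). Cyp26a1, the classical RA-induced member of this family, was at 6.01, 5.1 and 5.21 CPM untreated and at 5.81, 8.63 and 7.04 CPM with RA, which overlap (0.41 ± 0.15, edgeR adjusted p = 0.05).

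Of 9 receptor and co-regulator genes tested, 2 rose and 2 fell, though 1 rose without untreated replicate 2 and 1 fell without untreated replicate 1 or 2. Rarb, which encodes retinoic acid receptor beta, was at 1.57, 2.53 and 3.45 CPM untreated and at 30.2, 29.6 and 29.7 CPM with RA, a difference far outside the spread of either group (3.58 ± 0.18, edgeR adjusted p = 2.0e-07). Rxrg, the retinoid X receptor gamma, moved in the opposite direction, from 10.1, 11.6 and 11.2 CPM to 1.04, 0.85 and 0.572 CPM (-3.72 ± 0.17). Among 7 genes of retinoid binding and uptake 2 rose and 0 fell, though 1 fell without RA replicate 3. Of the 2 rises, 1 was that of Stra8, a gene named for its induction by RA and best known for its part at the onset of meiosis. It was at 2.84, 2.41 and 1.47 CPM untreated and 58.4, 94.8 and 69 CPM with RA (5.05 ± 0.23). The other was Crabp2, a carrier that hands RA to its receptors, from 268 ± 23.9 to 555 ± 37.4 CPM (1.07 ± 0.07).

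Rarb lies on chromosome 14 from 16430839 to 16819156 on the minus strand of GRCm38, and some of its exons overlap exons of Top2b on the other strand; the strand setting of the counting was not given in the sources used here. The 250 bases before its start in the RefSeq annotation of GRCm38.p6, at chr14:16575477-16575726 and read 5′ to 3′ on the gene's strand, are shown because they hold a pair of receptor half-sites. Capitals mark the half-sites GGTTCA and AGTTCA, which are separated by 5 bases.
Rarb upstream: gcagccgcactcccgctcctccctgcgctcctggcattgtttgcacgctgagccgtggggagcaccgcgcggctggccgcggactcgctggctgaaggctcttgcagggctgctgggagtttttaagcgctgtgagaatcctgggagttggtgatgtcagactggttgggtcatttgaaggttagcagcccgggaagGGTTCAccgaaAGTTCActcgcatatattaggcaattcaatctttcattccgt
The search was for 2 half-sites, each of them either AGGTCA, or AGTTCA, or GGGTCA, or else GGTTCA, in the same direction with 1, 2 or 5 bases between them, on both strands, in windows of 300 bases (250 before to 50 after each start). Among 11903 tested genes with such a window, 54 held a pair (0.454%) and 7 held one with 5 bases between (0.0588%). Of 818 genes that rose and had a window, 6 held a pair (0.733%), against 1 of 508 that fell (0.197%). Of 10 called Hox genes with a window, 0 held one. These are matches of letters in a short window and do not show binding.

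Hox genes, which give cells their position along the head-to-tail axis and are numbered from the head end, were called in 65.4% of cases. Of 26 tested, 14 rose and 3 fell, with a median log2 fold change of 1.69, and their summed level was 191 to 226 CPM in the untreated libraries and 372 to 399 CPM with RA. Of the 14 rises, 13 were in paralog groups 3 to 8. Hoxd3 was at 0.181, 0.309 and 0.314 CPM untreated and at 22.2, 20.6 and 17.5 CPM with RA (6.22 ± 0.18, edgeR adjusted p = 9.7e-09). Hoxb4 went from 1.87, 2.81 and 1.47 CPM to 38.8, 40.4 and 38.5 CPM (4.26 ± 0.15). In neither gene did the groups come near each other. Hoxc5 (4.90), Hoxb5 (4.86), Hoxb6 (3.92), Hoxc4 (3.31), Hoxa4 (3.09), Hoxb7 (2.86), Hoxb8 (2.85), Hoxb3 (2.84), Hoxa5 (2.46), Hoxd1 (2.37), Hoxd8 (2.16) and Hoxa7 (1.22) also rose. Hoxd3 shares exon sequence with Hoxd4 in the annotation, and Hoxb3, Hoxb5, Hoxa4 and Hoxd3 overlap antisense transcripts, so that reads of these genes may not all be their own.

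Of paralog groups 1 and 2, Hoxd1 rose, as given above, while Hoxb1 and Hoxb2 did not. Hoxb1, a marker of the fourth hindbrain segment and an early RA target, was at 58.6, 60.7 and 64.9 CPM in untreated organoids and at 14.4, 16.7 and 17.5 CPM with RA, so that every RA library lay below every untreated library (-1.91 ± 0.08, edgeR adjusted p = 5.4e-08). Hoxb2 was at 59.4 ± 5.27 CPM untreated and 52.1 ± 4.29 CPM with RA and was not called (-0.18). At the tail end, Hoxa9 fell from 1.23 ± 0.251 to 0.229 ± 0.223 CPM (-2.43) and Hoxc9 from 1.17 ± 0.539 to 0.364 ± 0.0566 CPM (-1.67), both at low levels. Neither passed the test once RA replicate 2 (edgeR adjusted p = 0.0118 for Hoxa9 and 0.0235 for Hoxc9) or untreated replicate 2 (0.0127 and 0.0159) was left out, which leaves Hoxb1 as the 1 Hox gene that fell. Hoxc9 also did not pass without RA replicate 1 (0.0115) or 3 (0.0133) or in a fit of all 45 libraries (0.0287). Among 9 cofactors that bind DNA together with Hox proteins, 1 rose: Meis1, from 49.7 ± 3.21 to 114 ± 4.08 CPM (1.20 ± 0.06).

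Of 15 hindbrain regulators tested, 5 rose and 3 fell. Egr2 (Krox20), which marks hindbrain segments 3 and 5, was at 17.7, 18.4 and 28.3 CPM untreated and at 1.68, 1.11 and 1.61 CPM with RA (-3.87 ± 0.22, edgeR adjusted p = 5.8e-07). Gbx2, which positions the border of midbrain and hindbrain, fell from 52.3 ± 5.46 to 16.4 ± 1.05 CPM (-1.66). Zfp503 (1.90) and Irx1 (1.46) were among those that rose.

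Forebrain and midbrain regulators did not move as one group: 8 of 14 rose and 3 fell, with a median of 1.27, while their summed level was lower with RA (41.4 to 44.5 CPM against 86.6 to 99.2 CPM). The sum was carried by Otx2, the homeobox gene that both the forebrain and the primed epiblast express, at 79.9, 82.5 and 70.5 CPM untreated and 11.5, 7.48 and 8.86 CPM with RA (-3.06 ± 0.13, edgeR adjusted p = 8.2e-08). Fezf2, a forebrain factor, fell from 1.19 ± 0.196 to 0.256 ± 0.0989 CPM (-2.18). The rises were in genes at low level: Pax2 (0.957 ± 0.184 to 3.75 ± 0.582 CPM, 1.98), En2 (2.14 ± 0.479 to 6.74 ± 0.311 CPM, 1.67) and Emx2 (0.288 ± 0.0525 to 1.13 ± 0.136 CPM, 1.97). Wnt1, a signal of the midbrain border and of the dorsal midline, was almost silent without RA, at 0.0302, 0.124 and 0 CPM, and reached 5.18, 6.05 and 6.5 CPM with it (6.75 ± 0.38, on 5 counts in all without RA).

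Of 10 tested genes of the posterior growth zone, which extends the embryo's body axis, 3 rose and 3 fell. Nkx1-2, a marker of neuromesodermal progenitors and of the pre-neural tube, was at 43.3, 54 and 47.5 CPM untreated and at 2.01, 0.882 and 1 CPM with RA, so that the groups were far apart (-5.22 ± 0.19, edgeR adjusted p = 3.4e-08). T (Brachyury), needed for mesoderm, fell from 4.13 ± 0.866 to 1.1 ± 0.258 CPM (-1.88). Sp5, a Wnt-responsive factor, rose from 1.12 ± 0.0471 to 9.94 ± 1.4 CPM (3.16) and Wnt3a from 0.432 ± 0.188 to 6.9 ± 0.807 CPM. Cdx1, a caudal homeobox gene, rose from 0.298 ± 0.0366 to 1.1 ± 0.215 CPM (1.88). Its relative Cdx4 went the other way, with 45 counts in all untreated and 2 with RA (ratio 19.7, 95% counting interval 5.16 to 168).

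**Figure D2:**
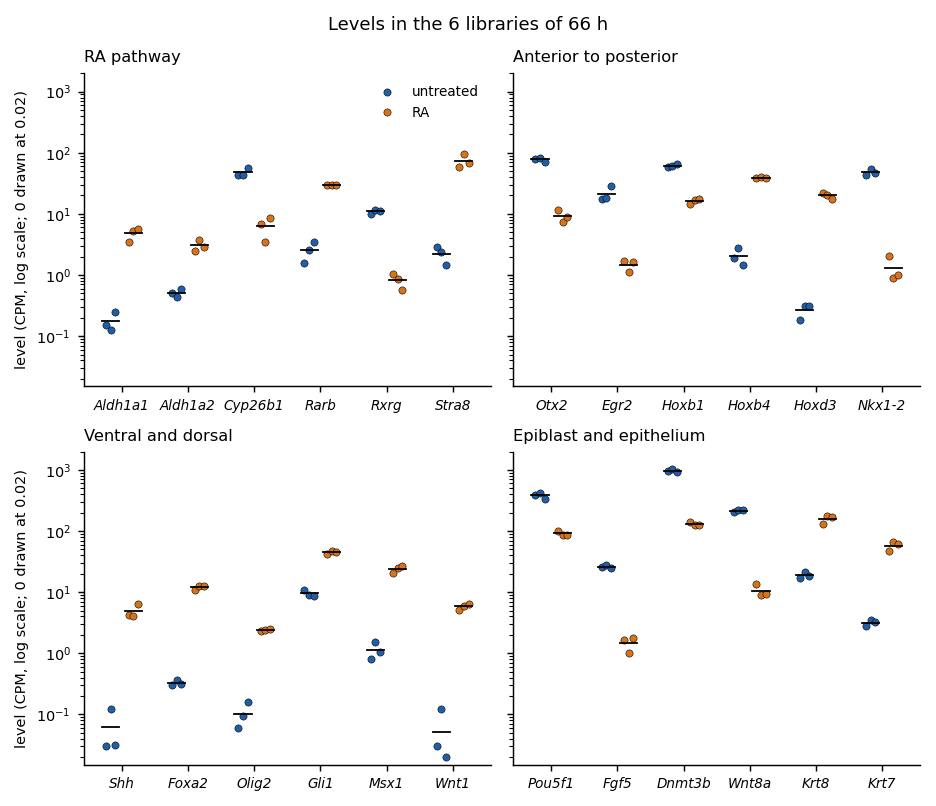
Each point is 1 library of 66 h and each bar the mean of 3, in CPM on a log scale, with untreated organoids in blue and RA-treated organoids in orange; a level of 0, as in 1 untreated library for Wnt1, is drawn at 0.02. In all 24 genes shown the libraries of the 2 groups do not overlap, with Aldh1a1, Rarb, Hoxd3, Shh and Wnt1 higher and Cyp26b1, Rxrg, Egr2, Nkx1-2, Dnmt3b and Wnt8a lower with RA.

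Ventral genes of the neural tube, which Sonic hedgehog from the floor plate induces in the embryo, mostly rose: 9 of 13 rose and 0 fell, with a median log2 fold change of 1.93. The lowest value was -0.74, and in 1 of the 13 all RA libraries lay below all untreated libraries. Shh itself was at 0.0302, 0.124 and 0.0314 CPM in the untreated libraries, 6 counts in all, and at 4.28, 4.05 and 6.29 CPM with RA (6.22 ± 0.39, edgeR adjusted p = 9.1e-07). Foxa2, the floor plate regulator, was at 0.302, 0.371 and 0.314 CPM untreated and at 10.8, 12.4 and 12.8 CPM with RA (5.18 ± 0.17), and Foxa1 moved alike (5.13 ± 0.17). Olig2, a motor neuron progenitor factor, went from 0.103 ± 0.0491 to 2.41 ± 0.116 CPM (4.51), Nkx2-9 from 1.33 ± 0.43 to 5.56 ± 0.969 CPM (2.07) and Nkx6-1 from 4.2 ± 0.626 to 11.3 ± 1.75 CPM (1.43).

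Readouts of the Hedgehog pathway moved with them, since 6 of 12 pathway genes rose and 0 fell. Gli1, a transcription factor that is also a transcriptional target of the pathway, was at 10.8, 9.05 and 8.78 CPM untreated and at 41.4, 47.5 and 45.8 CPM with RA (2.25 ± 0.09, edgeR adjusted p = 6.5e-08). Ptch1, the receptor and another target, rose from 100 ± 4.8 to 261 ± 21.5 CPM (1.39 ± 0.07), and Hhip, an antagonist induced by the pathway, from 1.44 ± 0.319 to 7.25 ± 1.3 CPM (2.33). The co-receptor gene Gas1 rose as well (1.34).

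The dorsal list also shifted, with 9 of 15 genes up, 4 down and a median of 1.74. Its summed level was nevertheless lower with RA (350 to 397 CPM) than without it (500 to 519 CPM). Msx1, a BMP target of the dorsal midline, was at 0.815, 1.51 and 1.04 CPM untreated and at 20.7, 25.1 and 26.4 CPM with RA (4.43 ± 0.18, edgeR adjusted p = 5.8e-08). Zic1 rose from 13.3 ± 1.03 to 79.2 ± 4.39 CPM (2.58) and Pax3, a dorsal progenitor factor, from 16.3 ± 3.63 to 42.2 ± 3.25 CPM (1.38). Within the Zic family the members went in different directions. Zic2 (-1.23) and Zic5 (-1.20) fell, whereas Zic4 rose (3.45) like Zic1. Olig3 was another dorsal gene that fell (-1.44).

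BMP genes, which include dorsalizing ligands and their targets, showed 12 rises and 1 fall among 18 tested (median 1.29). The ligand Bmp2 rose from 0.278 ± 0.0643 to 2.87 ± 0.648 CPM (3.37) and Bmp4 from 3.22 ± 0.642 to 11.4 ± 1.09 CPM (1.83). Of the targets, Id1 rose from 9.25 ± 0.986 to 47.4 ± 4.75 CPM (2.37) and Id3 from 23 ± 3.32 to 150 ± 8.34 CPM (2.72). The fall was in Fst, which encodes follistatin, an antagonist of activin and BMP ligands, at 83.9, 89.9 and 93.1 CPM untreated and at 15.5, 10 and 12.7 CPM with RA (-2.80 ± 0.12, edgeR adjusted p = 8.7e-08). Nog, which encodes the antagonist noggin, rose from 0.391 ± 0.171 to 2.12 ± 0.176 CPM (2.44).

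Of 26 Wnt genes, 13 rose and 4 fell, with a median of 1.04, but the summed level of the list was lower with RA (479 to 533 CPM) than without it (925 to 1063 CPM). The ligand Wnt8a, which acts in the posterior epiblast, was at 203, 220 and 219 CPM untreated and at 13.6, 9.12 and 9.22 CPM with RA (-4.32 ± 0.13, edgeR adjusted p = 9.7e-09). Sfrp1, a secreted Wnt inhibitor, fell from 434 ± 69.8 to 125 ± 14 CPM (-1.79), and Lef1, which carries the Wnt signal in the nucleus, from 74.6 ± 5.04 to 15.2 ± 1.8 CPM (-2.29). Other ligands rose from low levels, among them Wnt6 (2.50), Wnt7b (2.21), Wnt7a (2.01), Wnt4 (1.66) and Wnt5a (1.56), as did the antagonist Dkk1 (2.82).

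In the FGF and ERK feedback list, which holds ligands and receptors of FGF signalling together with the targets and inhibitors that it induces, 6 of 20 genes fell and 3 rose (median -0.62), and 14 had all RA libraries below all untreated libraries. Spry2, a feedback inhibitor, was at 110, 114 and 104 CPM untreated and at 42.3, 38.5 and 40.6 CPM with RA (-1.42 ± 0.06), and the ligand Fgf4 fell from 56.9 ± 7.8 to 23.5 ± 0.527 CPM (-1.27). Of 7 genes of the Nodal pathway, 0 rose and 1 fell: Foxh1, a partner of Smad proteins, from 43.9 ± 2.49 to 11.7 ± 0.91 CPM (-1.90).

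Genes of the intermediate neural tube, between the dorsal and ventral domains, rose in 6 of 9 cases and fell in 1 (median 1.29). Prdm13, a regulator of spinal interneuron identity, was at 0.604, 0.309 and 0.345 CPM untreated and at 13.6, 14.6 and 16.2 CPM with RA (5.13 ± 0.19, edgeR adjusted p = 4.0e-08). Dbx1, a factor of the progenitors next to the middle of the tube, rose from 7.17 ± 1.51 to 43.4 ± 2.62 CPM (2.61). Gsx1 fell from 0.583 ± 0.16 to 0.141 ± 0.00929 CPM (-2.02) while its relative Gsx2 rose (2.95). The fall of Gsx1, the 1 fall of this list, was not called without RA replicate 2 (edgeR adjusted p = 0.0124).

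Of 29 genes of neuron differentiation, 14 rose and 4 fell, with a median of 0.88. The summed level of the list overlapped between the groups, at 459 to 469 CPM untreated and 430 to 484 CPM with RA. Neurog1 and Neurog2, proneural factors that commit progenitors to a neuronal fate, both rose: Neurog1 was at 0.513, 0.309 and 0.627 CPM untreated and at 10.4, 10.4 and 11.4 CPM with RA (4.47 ± 0.19), and Neurog2 at 0.151, 0.957 and 0.471 CPM and at 5.36, 6.5 and 5.89 CPM (3.50 ± 0.35). The groups overlapped for neither gene. Nhlh2, a factor of newborn neurons, rose from 0.215 ± 0.0893 to 11.8 ± 1.3 CPM (5.76), and Dcx, the microtubule protein doublecortin of migrating neurons, from 2.23 ± 0.658 to 17.7 ± 4.07 CPM (2.99). Lhx1 (2.97), Isl1 (2.37) and Onecut1 (1.99), factors of spinal neuron subtypes, rose as well. Stmn2, a microtubule regulator of neurons, went against them, at 172, 184 and 188 CPM untreated and 41.2, 30.4 and 33.2 CPM with RA (-2.37 ± 0.10, edgeR adjusted p = 6.5e-08), and so did Chat (-1.57), which makes acetylcholine. Without untreated replicate 3, 7 genes of this list fell.

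Among 65 axon guidance genes, 13 rose and 8 fell (median 0.34). Robo3, a receptor that lets commissural axons cross the midline, was at 0.664, 0.772 and 1.41 CPM untreated and at 18.6, 23.6 and 16.6 CPM with RA (4.38 ± 0.23, edgeR adjusted p = 2.7e-07). Unc5a (3.17) and Unc5c (2.61), receptors for netrin, Nrp1 (2.75), a receptor for semaphorins, and the ligands Slit1 (2.37) and Slit2 (2.11) rose. Epha1 (-2.35), Epha2 (-2.03) and Sema6a (-2.32) fell. Without untreated replicate 3 the number that fell was 5.

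Markers of neural crest, the migratory cells that leave the dorsal tube, rose in 7 of 11 cases and fell in 1 (median 1.26). Ednrb, an endothelin receptor, was at 29.7, 26.4 and 34 CPM untreated and at 145, 141 and 154 CPM with RA (2.30 ± 0.08), and Tfap2a (1.86) and Sox9 (1.20) rose. Foxd3, a factor shared by crest and epiblast, fell from 9.37 ± 1.69 to 1.89 ± 0.303 CPM (-2.31).

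**Figure D3:**
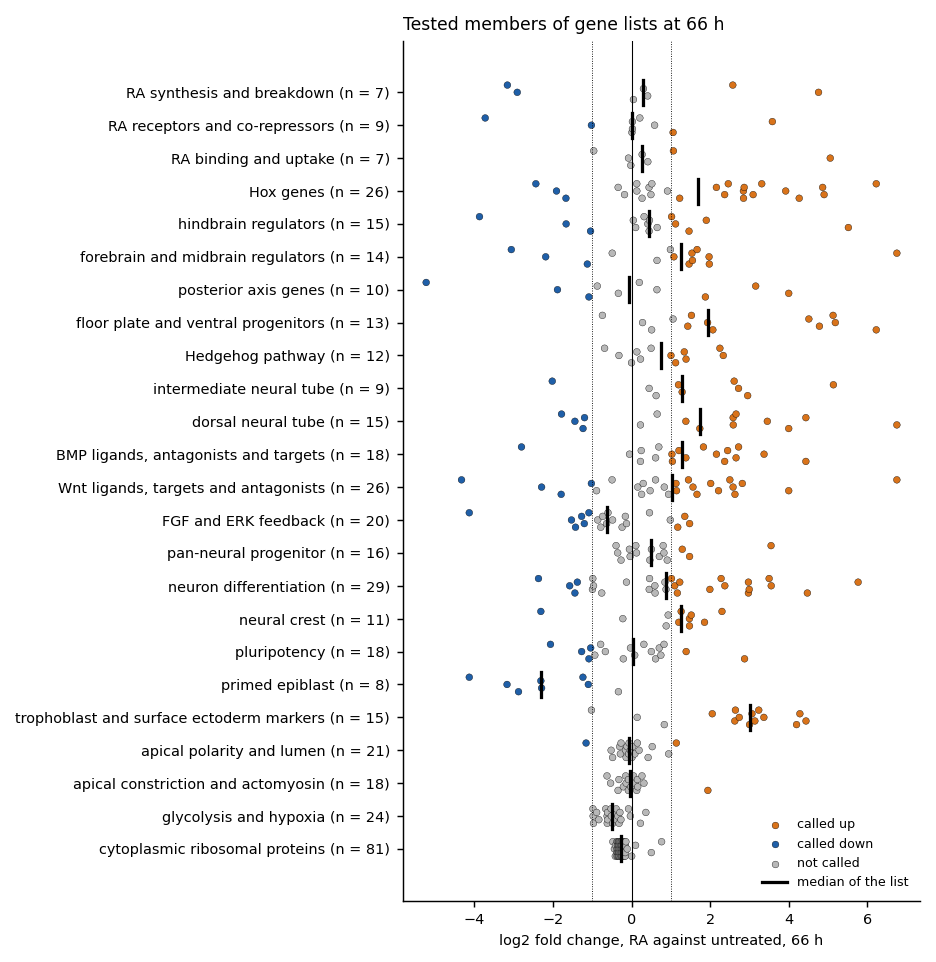
Each point is a tested gene of the list named at the left, placed by its log2 fold change at 66 h, RA against untreated, with rises in orange, falls in blue, genes not called in grey and the median of the list as a bar; dotted lines mark -1 and 1. The medians of the trophoblast and surface ectoderm markers (3.00), the ventral genes (1.93), the dorsal genes (1.74) and the Hox genes (1.69) lie to the right, that of the primed epiblast (-2.30) lies to the left, and the cytoplasmic ribosomal proteins (-0.27) form a narrow cluster.

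The primed epiblast is the state that pluripotent cells pass through before they become neural, and its list was lower with RA. Like the other lists, it was chosen with earlier results of these data known, so that its direction is described and is no test. Of its 8 genes, 7 fell and 0 rose (median -2.30), and in all 8 every RA library lay below every untreated library. Dnmt3b, a DNA methyltransferase that sets up methylation in the epiblast, was at 944, 1030 and 922 CPM untreated and at 141, 124 and 128 CPM with RA (-2.87 ± 0.07, edgeR adjusted p = 3.1e-09). Fgf5, the standard epiblast marker, was at 26.2, 27.5 and 24.5 CPM untreated and at 1.68, 1.01 and 1.79 CPM with RA (-4.13 ± 0.15). Pou3f1 fell from 90.2 ± 8.05 to 9.98 ± 0.408 CPM (-3.17).

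The general pluripotency list was split in its calls, with 2 of 18 genes up, 4 down and a median of 0.03. Its summed level was nevertheless lower with RA (1510 to 1528 CPM) than without it (2379 to 2580 CPM). Pou5f1 (Oct4), the central factor of pluripotency, was at 396, 420 and 340 CPM untreated and at 101, 87.4 and 87.3 CPM with RA (-2.06 ± 0.09, edgeR adjusted p = 8.7e-08). Tbx3 rose from 3.38 ± 0.176 to 24.6 ± 3.88 CPM (2.87) and Klf4 from 5.51 ± 1.13 to 14.3 ± 0.569 CPM (1.39), and both genes also act outside pluripotent cells. Of 8 genes of DNA methylation and its removal, Dnmt3b was the 1 that was called, and without untreated replicate 1 a further gene rose. Of 13 germline genes 2 rose, Rhox9 (3.80) and Dazl (1.53), and 1 fell, Sycp3 (-2.55), and without RA replicate 1 the rises numbered 4.

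Mir302b, with a log2 fold change of -5.91, belongs to a cluster of microRNA genes that are active in epiblast and embryonic stem cells. The cluster lies on chromosome 3 on the plus strand within an intron of Larp7, which is on the minus strand. The mature strands below are from RefSeq (GRCm38.p6), written 5′ to 3′ with the seed, bases 2 to 8, in capitals. They are shown because the 3 miR-302 strands share the run AAGUGCU.
mmu-miR-302b-3p: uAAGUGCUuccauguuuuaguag
mmu-miR-302c-3p: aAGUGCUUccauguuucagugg
mmu-miR-302d-3p: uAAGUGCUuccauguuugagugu
mmu-miR-367-3p: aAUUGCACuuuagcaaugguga
By these positions miR-302b and miR-302d have the seed AAGUGCU, miR-302c has AGUGCUU, in which the shared run starts 1 base earlier, and miR-367 has AUUGCAC. The libraries were made from poly(A) RNA, so that the counts are reads of precursor transcripts over the hairpins and not of mature microRNAs. Mir302b had 78, 118 and 103 counts untreated and 2, 0 and 2 with RA (-5.91 ± 0.44, edgeR adjusted p = 3.4e-06). Mir302a had 33, 55 and 60 counts and then 1, 0 and 1, a ratio of 64.9 (counting interval 17.7 to 541), and Mir302c had 27, 48 and 40 counts and then 0 in each, at least 11.2-fold lower. Mir302d (ratio 18.7, 6.13 to 93.2) and Mir367 (34.7, 9.28 to 291) went the same way. The counts of all 5 hairpins were thus higher in every untreated library than in any RA library, while Larp7 itself was not called (-0.39).

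Markers of cell types other than neuroepithelium were also different between the groups, and their part in the results above was not tested. Of 15 markers of trophoblast and surface ectoderm, the non-neural covering epithelia, 12 rose and 0 fell (median 3.00), and their summed level was 82.0 to 94.3 CPM untreated and 489 to 670 CPM with RA. Krt8, a keratin of simple epithelia, was at 16.8, 21.3 and 18.7 CPM untreated and at 130, 174 and 167 CPM with RA (3.06 ± 0.12, edgeR adjusted p = 5.1e-08). Krt7 was at 2.78, 3.52 and 3.26 CPM and at 47.5, 65.2 and 61.1 CPM (4.20 ± 0.14). Within the RA group, replicate 1 was the lowest of the 3 for both. Gata2 rose from 1.9 ± 0.314 to 36.7 ± 8.52 CPM (4.28) and Hand1 from 0.432 ± 0.0875 to 9.34 ± 1.7 CPM (4.44), whereas Krt5 and Krt14, keratins of stratified epithelium, had too few counts to be tested. Krt8 and Krt18, like the ribosomal protein genes below, have near-identical processed copies in the genome, and how reads that match several places were counted was not given in the sources used here.

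Of 9 endoderm markers 4 rose and 0 fell (median 1.68), with a summed level of 20.9 to 22.3 CPM untreated and 41.3 to 47.8 CPM with RA. Sox17, an endoderm factor that endothelium also expresses, was at 0, 0.216 and 0.157 CPM untreated and at 6.55, 7.03 and 7.47 CPM with RA (5.79 ± 0.36). Of the defining genes of this list, Ttr and Cer1 had too few counts to be tested, and Afp had 2 counts without RA and 39 with it (ratio 22.2, counting interval 5.75 to 190). Of 11 mesoderm markers 4 rose and 1 fell (median 0.55; summed level 21.7 to 25.0 CPM untreated and 26.0 to 28.6 CPM with RA), among them Meox1, which marks somites, from 1.09 ± 0.546 to 8.22 ± 1.14 CPM (2.94). The mesoderm marker that fell was T (-1.88). Mesp1, Myod1 and Tbx5 had too few counts to be tested. Of 5 endothelium and blood markers 2 rose, Cdh5 from 0.718 ± 0.411 to 9.02 ± 1.45 CPM (3.65) and Kdr from 1.03 ± 0.126 to 4.57 ± 0.537 CPM (2.16), in a summed level of 20.7 to 27.7 CPM untreated and 39.3 to 51.8 CPM with RA, and the blood gene Ptprc was not tested for the same reason.

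Lists of genes for the shape of the epithelium differed in how many members were called. Of 21 genes of apical polarity and lumen formation 1 rose and 1 fell (median -0.06), these being Llgl2, a basolateral polarity protein (35 ± 4.36 to 76.4 ± 8.51 CPM, 1.14), and Crb1, an apical determinant (3.72 ± 0.312 to 1.66 ± 0.427 CPM, -1.16). Of 18 genes of apical constriction and actomyosin, 1 rose, Shroom1 (0.514 ± 0.0716 to 1.96 ± 0.328 CPM, 1.94), and 0 fell, with a median of -0.05. Called in either direction were thus 9.52% and 5.56% of these lists, as against 11.5% of all tested genes, and without untreated replicate 3 the polarity genes that rose numbered 2. Planar polarity genes, which orient cells in the sheet, had 3 rises and 2 falls among 17, or 29.4% called: Fat4, an atypical cadherin, rose from 6.19 ± 1.35 to 26.3 ± 5.9 CPM (2.10) and Celsr3 fell from 35.9 ± 2.84 to 13.7 ± 0.653 CPM (-1.37).

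Of 11 genes for the making, sensing and removal of lysophosphatidic acid (LPA), a lipid signal that acts on the actin cytoskeleton through its receptors, 1 rose, or 2 with the replicate number as a block, and 2 fell. Enpp2, the enzyme autotaxin that makes LPA outside the cell, was at 14.6, 17.1 and 13.3 CPM untreated and at 2.46, 2.35 and 2.86 CPM with RA (-2.54 ± 0.13, edgeR adjusted p = 3.1e-07). The receptor Lpar4 fell from 82 ± 15.2 to 20.9 ± 4.42 CPM (-1.97), and the receptor Lpar3 rose from 0.697 ± 0.156 to 2.46 ± 0.341 CPM (1.82). Cxcl12, a chemokine, was at 72.5, 74.3 and 72.9 CPM untreated and at 9.42, 9.12 and 10.2 CPM with RA (-2.93 ± 0.06), whereas its receptors Cxcr4 (0.62) and Ackr3 (0.69) did not pass both criteria.

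Among genes of adhesion and matrix, 12 of 38 matrix and integrin genes rose and 3 fell (median 0.76), 5 of 13 claudins rose and 0 fell (median 0.44), and 1 of 9 cadherin and Epcam genes rose and 2 fell (median -0.22). Itgb3, an integrin subunit, rose from 2.78 ± 0.532 to 24.3 ± 5.35 CPM (3.14), and Lama1, a laminin chain of the embryonic basement membrane, from 34.9 ± 8.41 to 96 ± 9.77 CPM (1.47). Cldn4, a tight junction protein, rose from 18.2 ± 1.55 to 52.7 ± 5.14 CPM (1.55). Cdh13, a cadherin without a cytoplasmic tail, fell from 3.43 ± 0.677 to 0.822 ± 0.198 CPM (-2.03) and was the 1 cadherin gene that fell when untreated replicate 2 was left out.

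Imprinted genes, which are expressed from the allele of 1 parent and many of which control growth, were called in 15 of 27 cases, 11 up and 4 down (median 0.70). H19, a long non-coding RNA, was at 21.7, 22.9 and 16.9 CPM untreated and at 389, 575 and 369 CPM with RA (4.45 ± 0.19, edgeR adjusted p = 7.4e-08). Its neighbour on chromosome 7, the growth factor gene Igf2, was at 2.42, 2.9 and 2.98 CPM and at 29.8, 41 and 37.6 CPM (3.72 ± 0.14). The growth inhibitor Cdkn1c rose from 49.4 ± 4.08 to 271 ± 29.3 CPM (2.47). The 4 that fell were Meg3 (973, 944 and 932 CPM to 275, 252 and 257 CPM, -1.85 ± 0.05), Rian (920 ± 33.6 to 262 ± 12.6 CPM, -1.80) and Mirg (-1.88), non-coding RNAs of a shared imprinted domain, and Snrpn (-1.60), whose exons overlap those of Snurf on the same strand. Dlk1 (1.56) and Dio3 (3.92), protein-coding genes of the domain of Meg3, rose.

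Of 30 cell cycle genes 5 rose and 0 fell (median -0.02), and apart from Ccnd2, cyclin D2 (363 ± 29.5 to 824 ± 5.58 CPM, 1.20), those that rose were the inhibitors Cdkn1c, Cdkn2a (2.06), Cdkn2b (1.27) and Cdkn2c (1.77). Of 10 p53 targets 1 fell, Pmaip1 (-1.58), and of 9 immediate early and heat shock genes 1 rose, Jun (1.11), or 2 without RA replicate 1 or untreated replicate 1. Of 81 cytoplasmic ribosomal protein genes, 47 proteasome, 73 oxidative phosphorylation, 24 glycolysis and hypoxia, and 22 cholesterol and fatty acid synthesis genes, 0 were called in either direction, although 1 or 2 glycolysis and hypoxia genes fell when RA replicate 2 or 3 or untreated replicate 1 or 3 was left out. Ribosomal protein genes were nevertheless placed to one side, with all RA libraries below all untreated libraries for 77 of 81 and a median of -0.27, and 19 of 24 glycolysis and hypoxia genes passed the adjusted p at a lower level with RA but short of the fold criterion (median -0.50), as against 15.6% of all genes that passed the adjusted p with a lower level at any fold. Ldha, lactate dehydrogenase A, had the values 1792, 2025 and 1828 CPM untreated and 903, 960 and 1002 CPM with RA (-0.97).

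Outside these groups, the largest rises among genes with a mean of at least 1 CPM over the 6 libraries included Arg1, the urea cycle enzyme arginase 1, at 0.332, 0.247 and 0.314 CPM untreated and 22.3, 31 and 24 CPM with RA (6.43 ± 0.20), and Sst, the neuropeptide somatostatin (0.0825 ± 0.0644 to 5.35 ± 1.07 CPM, 5.97). Nepn had 0 counts in the untreated libraries and 49 to 66 in each RA library, at least 21.7-fold higher, and Olfr316 had 2 counts untreated and 200 with RA (ratio 114, counting interval 31.1 to 947). Vgll1 (5.90), Vtn, the matrix protein vitronectin (5.65), and Hk3, a hexokinase (5.55), followed. The untreated mean of Sst lies under the floor of 3 counts per library, so that the size of its rise is not resolved. With 1 library left out the values were 5.59 to 6.76 for Sst, 5.35 to 7.12 for Vgll1, 5.15 to 6.15 for Vtn and 5.01 to 6.77 for Hk3. Among the largest falls were Kcnj3, a potassium channel subunit (50.4, 45.3 and 45.6 CPM to 1.71, 0.686 and 0.964 CPM, -5.40 ± 0.18), whose exons overlap those of Gm26794 on the other strand, Vrtn (59.5 ± 2.27 to 2.64 ± 0.245 CPM, -4.48) and the kinase gene Pim2 (482 ± 34.2 to 23.6 ± 2.92 CPM, -4.34). Slc35d3 (-4.31), Gmnc (-4.30), Clvs2 (-4.24), Tmem154 (-4.17) and Fut1 (-4.14) fell from levels under 7 CPM. The value for Gmnc was -6.68 without RA replicate 1 and -3.68 without RA replicate 2.

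The RA effect at 66 h was then set against that at 54 h, 78 h and 18 h, each in a fit of 12 libraries with separate controls for each time, in which a gene differs if the interaction term has an adjusted p under 0.01 and a size above 1 on the log2 scale. By the library numbers in the titles, all libraries of 18 h fall in a lower run of numbers than those of 66 h and 78 h. Of the 54 h libraries all but untreated replicate 3 fall in that lower run too. The labels do not say whether a run of numbers stands for a batch or a date. Time and run of numbers cannot be told apart for 18 h, nor for the RA libraries of 54 h, and only in part for the untreated libraries of 54 h. The effect differed from that at 54 h for 99 of 17528 genes (0.565%), 72 with a higher (0.411%) and 27 with a lower value (0.154%) at 66 h, from that at 78 h for 9 of 17823 genes (0.0505%), and from that at 18 h for 1707 of 17792 genes (9.59%). Of the genes that rose at 66 h and were tested at the other time, 74.5% of 1075 had also risen at 54 h, where 7.17% of all tested genes rose, 85.0% of 1154 also rose at 78 h (7.66% of all) and 44.5% of 905 had risen at 18 h (8.17%). Of those that fell, 77.6% of 722 had fallen at 54 h (5.99% of all), 70.8% of 729 fell at 78 h (4.03%) and 26.2% of 705 had fallen at 18 h (2.76%).

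The positive differences from 54 h were largest for Robo3, Nhlh2, Nefm, Grm6 and Dcx. Robo3 had 0.736 ± 0.385 CPM untreated and 1.76 ± 0.755 CPM with RA at 54 h, against 0.949 ± 0.404 and 19.6 ± 3.58 CPM at 66 h (difference of effects 3.20 ± 0.54, edgeR adjusted p = 0.0048). It did not pass without RA replicate 2 (0.0124) or untreated replicate 2 (0.0128). Nhlh2 (2.90), which did not pass without RA replicate 1 or 2 or untreated replicate 2 or 3 (0.0110 to 0.0176), and Dcx (2.47) differed in the same sense. The number of genes that differ was 36 without untreated replicate 3 and 53, 40 and 48 without RA replicates 1, 2 and 3. Nefm, a neurofilament subunit, was lower with RA at 54 h (7.28 ± 2.03 against 21.6 ± 0.68 CPM) and higher at 66 h (43.6 ± 1.5 against 19.3 ± 1.48 CPM), a difference of 2.78 ± 0.18. Its exons overlap those of Nefl on the other strand. In the opposite sense, Sfrp5, a secreted Wnt inhibitor, stood at 42.5 ± 0.655 CPM with RA at 54 h and at 7.7 ± 0.843 CPM at 66 h (difference of effects -1.68, with an adjusted p of 0.0159 in a fit of all 45 libraries), and Zfp703, a co-repressor gene of the hindbrain list, at 90.3 ± 0.388 and 41.8 ± 7.23 CPM (difference of effects -1.57). These differences also take in the untreated levels at both times and are not the change between the RA levels shown.

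Few genes separated 66 h from 78 h. Nefl was at 47.4 ± 2.13 CPM untreated and 31.3 ± 0.41 CPM with RA at 66 h, and at 46.9 ± 3.52 and 70 ± 4.55 CPM at 78 h, so that the sign of the effect turned (difference -1.18 ± 0.09, edgeR adjusted p = 1.2e-05). Gap43, a growth cone protein, differed likewise (-1.11). Thbs1, the matrix protein thrombospondin 1, was further below the control at 78 h (34.3 ± 1.26 CPM with RA, 170 ± 21.9 CPM untreated) than at 66 h (45.6 ± 2.17 and 106 ± 14.5 CPM, difference 1.09, with an adjusted p of 0.271 in a fit of all 45 libraries). With the replicate number as a block the count of such genes was 27 instead of 9.

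Against 18 h, the negative differences were largest for Cyp26b1, Hoxb1, Zfp703, Cyp26a1 and Hoxb2. Cyp26b1 was higher with RA at 18 h (17.5 ± 1.46 against 0.336 ± 0.114 CPM) and lower with RA at 66 h, a difference of effects of -8.52 ± 0.39 (edgeR adjusted p = 3.1e-10). Hoxb1 was at 4.65 ± 0.112 CPM untreated and 169 ± 4.03 CPM with RA at 18 h, where the order of the groups is the opposite of that at 66 h (-7.10 ± 0.10). Cyp26a1 had 2.75 ± 0.437 CPM untreated and 276 ± 16.9 CPM with RA at 18 h and overlapping groups at 66 h (-6.22), and Hoxb2 had 3.03 ± 0.257 and 121 ± 4.75 CPM at 18 h (-5.52). For Cyp26b1, Hoxb1, Cyp26a1 and Hoxb2 the untreated mean was higher at 66 h than at 18 h, and the RA mean was lower. Genes with a larger effect at 66 h included Aldh1a1, at 0.101 ± 0.0719 CPM untreated and 0.0854 ± 0.0435 CPM with RA at 18 h (4.90), Neurog2 (4.91), Dio3 (4.94) and Serpinb9b (4.60). In the libraries of 18 h, 3 counts correspond to 0.0756 to 0.139 CPM, so that the levels of Aldh1a1 at that time are not resolved.

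**Figure D4:**
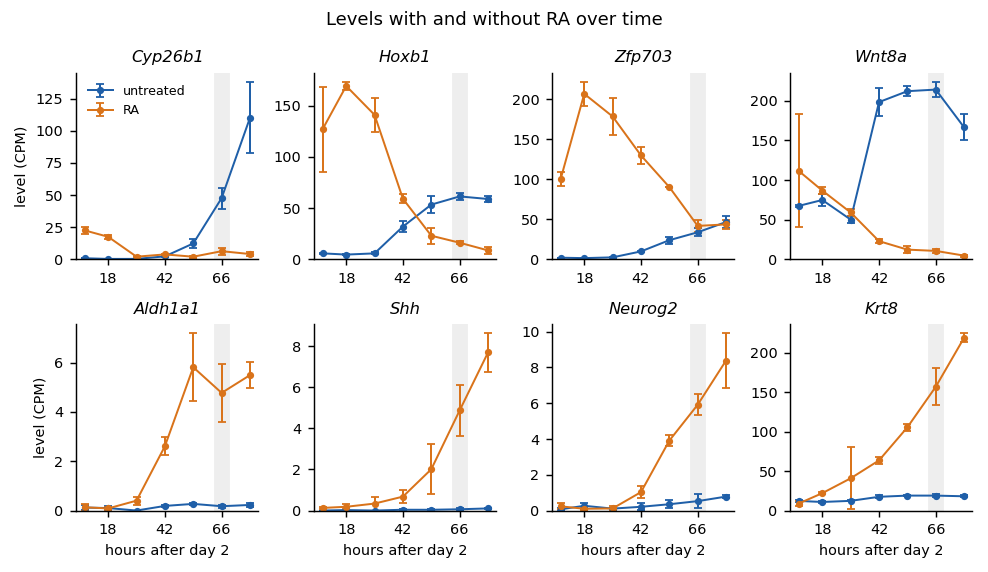
Mean level in CPM with SD (3 libraries per point) from 8 h to 78 h after day 2 in untreated (blue) and RA-treated (orange) organoids, with 66 h shaded; panels have separate axes that start at 0. Cyp26b1, Hoxb1 and Zfp703 start higher with RA and end lower or level, Wnt8a separates after 30 h, and Aldh1a1, Shh, Neurog2 and Krt8 separate later, with untreated levels that stay low.

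**Figure D5:**
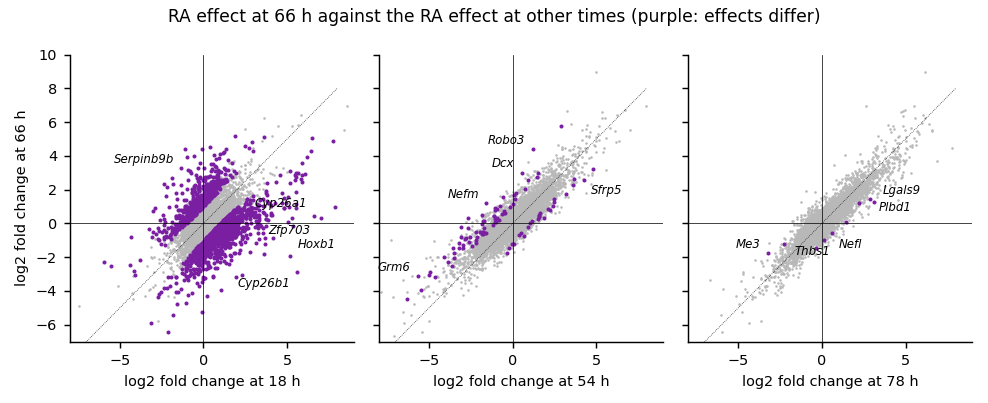
Log2 fold change of RA against untreated at 66 h (vertical) against that at 18 h, 54 h and 78 h (horizontal) for genes tested at both times; purple genes differ in the interaction test and the dotted line marks equal effects. Points spread widely for 18 h, where Cyp26b1 and Hoxb1 lie to the lower right, and stay near the line for 54 h and 78 h, with Robo3, Dcx and Nefm above it at 54 h and Nefl below it at 78 h.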

How the data were processed

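RNAseq was performed on 45 samples of R1 organoids in 15 groups of 3, and the 6 libraries of 66 h, with 12 for each comparison over time, were analysed here. Per the labels and the study's methods, poly(A) RNA was made into directional libraries and read as 75-base single ends. The deposited count table holds raw counts per gene, which the authors made by trimming (Trim Galore 0.5.0), removal of abundant sequences (Bowtie2 2.3.4.1), alignment to GRCm38 (STAR) and featureCounts (Subread 1.6.2). The strand setting and the treatment of reads that match several places are not given in the sources used here. Columns were matched to samples by title, and 0 columns were left without a sample.

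Counts were tested with edgeR 4.0.16 (R 4.3.3) by quasi-likelihood, with TMM normalization, filterByExpr (minimum count 10, minimum total 15) and Benjamini-Hochberg adjustment. Levels in CPM were scaled by TMM over all 45 libraries, and the SE of a fold change was derived from its F statistic. The effect at 66 h was compared with those at 54 h, 78 h and 18 h by the interaction of time and treatment. The edgeR test at 66 h and the interaction of 66 h with 78 h were run on simulated counts, with and without the replicate block. The DESeq2 test at 66 h and a test against a log2 fold change of 1 were run on them too. The DESeq2 interaction and the fit of all 45 libraries were not. Alternatives were size factors (RLE), library totals, DESeq2 1.42.0, 2 other filters, 2 other thresholds, a fit of all 45 libraries, the replicate block and each 66 h library left out.

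Gene groups are 46 lists. Members of the lists and the comparisons were chosen with earlier results of these data known, and lists are described by counts and medians with no test of their own. Named genes are the members of each list with the largest changes or a role the text needs, the 12 largest rises and 12 largest falls at a mean of at least 1 CPM in libraries that do not overlap, and the 5 largest differences each way of each comparison over time. A few genes that this rule names are not reported here. Positions come from a GRCm38 annotation, promoters and microRNAs from RefSeq.

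Replicates of a group differed by more than sampling noise (mean chi-square per gene 3.76 to 12.6), and none were merged. Deviations from the group means at 66 h correlated positively between same-numbered RA and untreated libraries (Pearson's r across genes 0.464, 0.165 and 0.207). Differently numbered pairs lay between -0.413 and 0.272. The highest of these, untreated replicate 2 with RA replicate 3, exceeded the same-number values of replicates 2 and 3, so that only replicate 1 stood out. The replicate block thus rests on these correlations and not on a stated shared culture, and a pairing is not established. Blocked values are given where they move a count by over 1.5 times.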

Additional observations from a re-analysis of the deposited data

Results flagged for a closer look

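The results below are those whose RA effect at 66 h differed from that at another time by the interaction term of an edgeR fit, with its adjusted p under 0.01 and a size above 1 on the log2 scale. Groups of 3 are too small for a test of single outlying libraries.

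Between 66 h and 54 h 99 genes differed, in a comparison in which all 54 h libraries but untreated replicate 3 fall in a lower run of library numbers. On the log2 scale the effect at 66 h exceeded that at 54 h by 3.20 for Robo3, 2.90 for Nhlh2, 2.78 for Nefm, 2.57 for Grm6 and 2.47 for Dcx. Grm6, a metabotropic glutamate receptor, was lower with RA at both times, at 0.119 ± 0.037 CPM against 6.35 ± 0.607 CPM untreated at 54 h and at 0.437 ± 0.1 CPM against 3.86 ± 0.955 CPM at 66 h. Its difference did not pass without RA replicate 1, 2 or 3 or untreated replicate 2 (edgeR adjusted p = 0.0105 to 0.0263), nor in a fit of all 45 libraries (0.173). The differences in the other direction were -1.68 for Sfrp5, -1.57 for Zfp703, -1.55 for Col12a1 and -1.49 for Cp. Col12a1, a collagen chain, was at 30.6 ± 1.67 CPM with RA and 1.11 ± 0.113 CPM untreated at 54 h, and at 10.7 ± 1.79 and 1.15 ± 0.15 CPM at 66 h, but did not pass in a fit of all 45 libraries (0.0822). Cp, which encodes ceruloplasmin, had 9.09 ± 0.623 CPM with RA and 0.95 ± 0.446 CPM untreated at 54 h, and 11.5 ± 1.7 and 3.51 ± 0.37 CPM at 66 h, and did not pass with any 1 of the 6 libraries of 66 h left out (0.0114 to 0.0301) or in the fit of all 45 (0.0156). Robo3 and Nhlh2 also failed without single libraries, as given in the results.

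Between 66 h and 78 h 9 genes differed. The differences were 1.46 for Me3, 1.09 for Thbs1, -1.82 for Lgals9, -1.40 for Plbd1, -1.32 for Pou2f2, -1.18 for Nefl and -1.11 for Gap43. Me3, a mitochondrial malic enzyme, fell from 21.8 ± 3.83 to 6.27 ± 0.294 CPM at 66 h and was at 30.9 ± 2.2 and 3.22 ± 0.337 CPM at 78 h. Lgals9, galectin 9, rose from 3.73 ± 0.698 to 9.07 ± 2.14 CPM at 66 h and stood at 2.29 ± 0.141 and 19.7 ± 0.502 CPM at 78 h. Plbd1 was at 2.13 ± 0.361 and 5.85 ± 0.881 CPM at 66 h and at 1.78 ± 0.187 and 12.9 ± 0.201 CPM at 78 h. Pou2f2, a POU-domain factor, did not differ detectably between the groups at 66 h (8.65 ± 1.11 and 9.2 ± 1.1 CPM) and was at 6.32 ± 0.838 and 16.7 ± 1.7 CPM at 78 h. In a fit of all 45 libraries Me3 (0.0684), Lgals9 (0.0135), Plbd1 (0.0101) and Thbs1 did not pass. Plbd1 also failed without RA replicate 1 or 2 or untreated replicate 2 or 3 (0.0137 to 0.0394), and Pou2f2 without RA replicate 3 or untreated replicate 1 or 2 (0.0119 to 0.0237).

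Between 66 h and 18 h 1707 genes differed, and for these the time and the run of library numbers cannot be told apart. The effect at 66 h exceeded that at 18 h by 4.94 for Dio3, 4.91 for Neurog2, 4.90 for Aldh1a1, 4.60 for Serpinb9b and 4.54 for Epn3. For Aldh1a1 the levels at 18 h are not resolved, as given in the results. Serpinb9b, a protease inhibitor, was at 2.7 ± 0.273 CPM untreated and 1.07 ± 0.176 CPM with RA at 18 h, and at 1.76 ± 0.237 and 16.7 ± 2.03 CPM at 66 h. Epn3, an epsin, had 2.15 ± 0.387 CPM untreated and 1.4 ± 0.43 CPM with RA at 18 h, and 0.802 ± 0.248 and 12.4 ± 3.62 CPM at 66 h. The differences in the other direction were -8.52 for Cyp26b1, -7.10 for Hoxb1, -6.72 for Zfp703, -6.22 for Cyp26a1 and -5.52 for Hoxb2.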

How the results depend on the processing

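The calls at 66 h were stable in number under most alternatives. Leaving out 1 of the 6 libraries gave 1055 to 1225 rises, the fewest without RA replicate 2, and 641 to 735 falls. With the replicate block the numbers were 1227 and 795, with library totals 1300 and 673, and where every library had to hold 10 counts 839 and 548. An adjusted p under 0.05 with no minimum fold change gave 4123 rises and 3867 falls, and a test against a log2 fold change of 1 (glmTreat) gave 576 and 283.

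The comparisons over time moved more. For 54 h, with 99 genes, the number was 176 by DESeq2, 291 with no filter on low counts, 993 at an adjusted p under 0.05 with no minimum difference, and 36 to 72 with 1 library of 66 h left out. For 78 h, with 9 genes, it was 26 by DESeq2, 68 with no filter, 27 with the replicate block, 5 in the fit of all 45 libraries, 69 at an adjusted p under 0.05, and 7 to 9 with 1 library left out. For 18 h, with 1707 genes, it was 6800 at an adjusted p under 0.05 and 1507 to 1674 with 1 library left out. The cause of these shifts was not tested.

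Of 1170 values of single genes at 66 h with 1 library left out, 1156 kept direction and side of the threshold, 10 lost and 4 gained the call. Of 1325 under the other alternatives, 1322 kept both. Of 156 values of single genes in the comparisons over time, 23 lost the call with 1 library left out, and of 176 under other alternatives 9 lost it. None turned in direction. The requirement of 10 counts per library removes genes that are near 0 in 1 group, and under it the rises were 0 for endoderm markers, 8 for Hox genes, 5 for forebrain and midbrain regulators and 2 for mesoderm markers. Depth limits genes under about 0.1 CPM, where 3 counts per library are not reached. Apart from the 78 h comparison and the LPA genes, the replicate block moved no count by over 1.5 times.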
